A study of Sus scrofa with 21 samples.

Results

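The genes described here are 8 receptor genes of blood vessel endothelium: the VEGF receptor kinases KDR, FLT1 and FLT4, the VEGF co-receptors NRP1 and NRP2, and the angiopoietin receptor TEK with its partners TIE1 and PTPRB. They were taken by pig Ensembl symbol from a table of 24358 genes, in which all 8 had a row and none shared its symbol with another row. The series tests a catheter device that carries a microbrush through a vessel to pick up the cells that line it. RNA was sequenced from 21 libraries of 3 pigs. Pigs 243K and 248K each gave 5 microbrush libraries and 2 libraries from a bare Nitinol wire without a brush, the negative control. Over both pigs, 5 microbrush and 2 wire libraries came from the kidney and as many from the liver. Whole blood gave 3 libraries, 2 of them drawn from 243K, and surgically removed aorta, the positive control, gave 4 libraries, all from pig 237053. No treatment, strain, age or genotype was given for any of them.

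VEGF ligands bind receptor tyrosine kinases on endothelial cells and drive their growth, migration and leakiness. KDR carries most of that signal, FLT1 binds VEGFA tightly with weak kinase activity and can act as a decoy, and FLT4 binds VEGFC and VEGFD and is best known from lymphatic vessels. NRP1 and NRP2 hold VEGF at the kinases and also bind semaphorins, and both are made by many cell types besides endothelium. In the angiopoietin arm, ANGPT1 activates TEK and steadies the vessel wall, ANGPT2 mostly opposes it, TIE1 is a partner of TEK with no ligand of its own firmly known, and PTPRB (VE-PTP) is a phosphatase of endothelial cells that removes phosphate from TEK.

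In the RefSeq annotation of Sscrofa11.1, the build the submitters' processing notes name, all 8 are protein-coding genes on 8 different chromosomes. KDR lies on chromosome 8 from 41809116 to 41856379, FLT1 on chromosome 11 from 5620698 to 5797095 and FLT4 on chromosome 2 from 78076008 to 78115137. NRP1 lies on chromosome 10 from 56280673 to 56430832 and NRP2 on chromosome 15 from 108974246 to 109092316. TEK lies on chromosome 1 from 195938177 to 196052294, TIE1 on chromosome 6 from 167919662 to 167947253 and PTPRB on chromosome 5 from 34656460 to 34794838.

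Several libraries stood apart before any receptor was examined. Estimated counts summed to 1144932 to 10188552 in the microbrush libraries, 1946286 to 11128400 in the wires, 1603229 to 3033008 in aorta and 5634 to 5301288 in blood. Blood 2 held 5634 counts over 302 genes and none from the red cell marker list, and microbrush 4 held 3831 genes. Wire 2, wire 3 and microbrush 6 held 9715, 10169 and 12653 genes, while every other library held 15023 to 20032. Summed smooth muscle markers ran from 28547 to 62465 CPM (counts scaled to library size) in aorta, as its label says, from 3007 to 122244 in the microbrush libraries, from 2112 to 10948 in the wires and from 86.1 to 360 in blood. Labels do not say whether libraries of 1 pig and organ were separate passes of the device, so p-values measure only the spread between these libraries.

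Levels per library are CPM after TMM scaling over all 21 libraries, in which 1 count was worth 0.209 to 0.636 CPM outside blood 2 and 5.06 CPM in blood 2. The TMM factors ran from 0.307 (wire 3) and 0.326 (microbrush 6) to 1.86 (microbrush 3), with 35.06 in blood 2. A low factor raises every CPM of its library. Transcript lengths were not available, so levels are compared between libraries for a gene and never between genes. In bulk RNA, fewer endothelial cells and less receptor RNA per cell cannot be told apart.

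**Figure D1:**
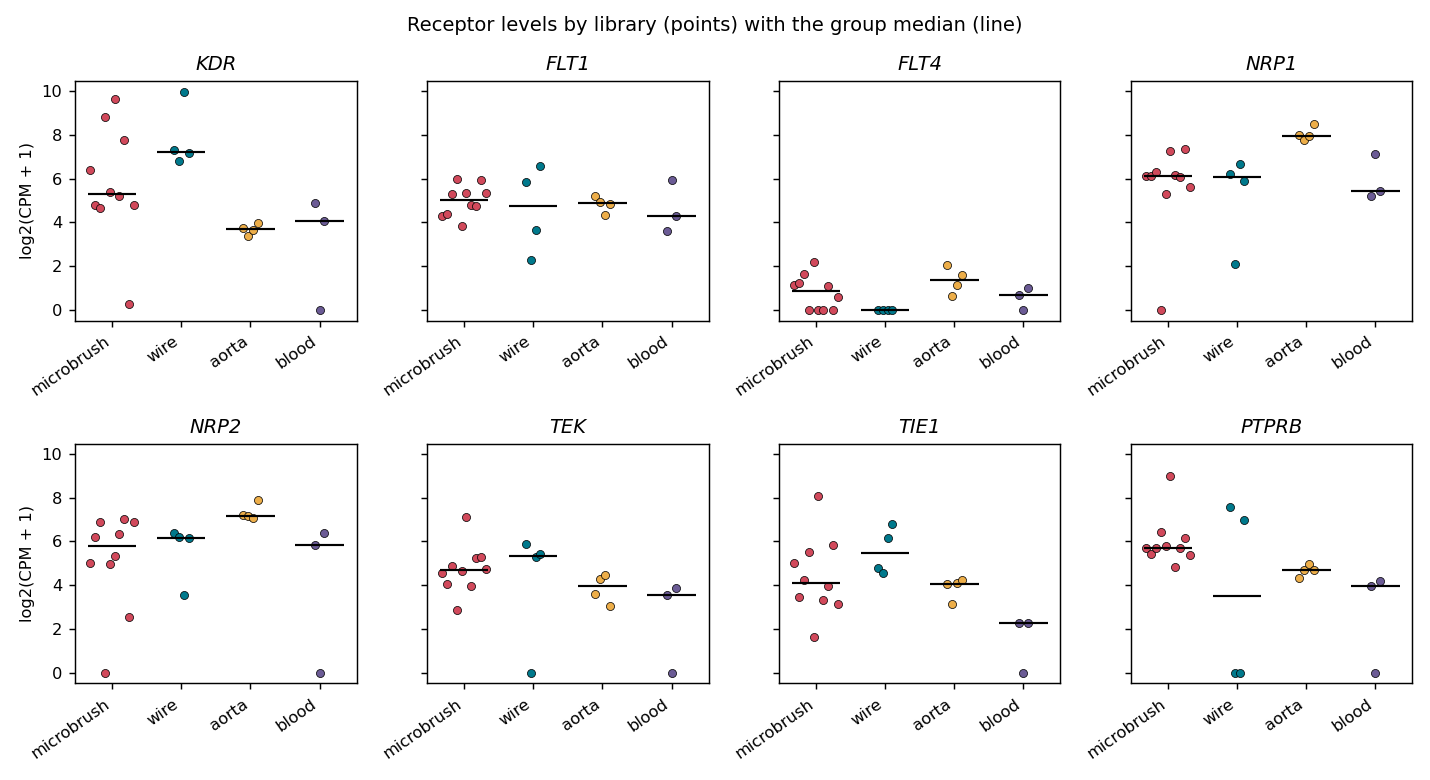
Each panel plots 1 receptor gene as log2(CPM + 1) on the vertical axis, with a point for each of the 10 microbrush, 4 wire, 4 aorta and 3 blood libraries and a line at the group median. KDR spans 0.209 to 809 CPM in the microbrush libraries and 9.31 to 14.8 CPM in aorta, NRP1 and NRP2 are highest in aorta, and PTPRB is at 0 in 2 of the 4 wires.

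On the log2(CPM + 1) scale KDR was the most variable receptor of the microbrush libraries. Its level was 0.209 CPM (1 count) in microbrush 9, the lowest, and 809 CPM in microbrush 6, the highest, with a median of 38.2. Microbrush 4 (450 CPM), microbrush 8 (219) and microbrush 1 (81.9) followed microbrush 6, and the other microbrush libraries apart from microbrush 9 lay between 24.4 and 41.0 CPM. Wires 1 to 4 gave 157, 110, 997 and 141 CPM, aorta 1 to 4 gave 12.4, 9.31, 11.7 and 14.8 CPM, and blood 1 to 3 gave 28.1, 0 and 15.7 CPM. Every wire was thus above every aorta and blood library, while the microbrush libraries reached from below aorta to nearly the level of wire 3. On the log2(CPM + 1) scale the SD of KDR over the 10 microbrush libraries was 2.64, above that of 98.4% of the 14291 genes with at least 10 counts in 7 catheter libraries, whose median SD was 1.69. In aorta its SD was 0.25. By SD of CPM as a percent of the mean, TIE1 was the more variable in the microbrush libraries, at 173% against 153% for KDR.

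FLT1 varied little among the microbrush libraries but not among the wires. It ran from 13.3 CPM (microbrush 5) to 62.7 CPM (microbrush 4) in the microbrush libraries, with a median of 32.4, from 19.4 to 35.5 CPM in aorta, and stood at 56.4, 3.79, 11.4 and 94.2 CPM in wires 1 to 4. The groups overlapped in all comparisons. Its microbrush SD of 0.71 was above that of only 3.6% of the 14291 genes, and its wire SD of 1.99 was above that of 56.0% and larger than the 1.45 of KDR. The 60.8 CPM of blood 2 rested on 12 counts, and the other blood libraries gave 11.02 and 18.8 CPM.

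FLT4 was close to the limit of detection. No library held more than 8 counts, the number in aorta 1 (3.19 CPM). It had counts in all 4 aorta libraries and in all 5 kidney microbrush libraries (0.516 to 3.59 CPM), in 1 of the 5 liver microbrush libraries (microbrush 8, 2 counts) and in none of the wires. A count of 0 allows up to 0.878 to 1.91 CPM in the wires and 0.627 to 1.58 CPM in the liver microbrush libraries at 0, so a difference of this size was not detectable at this depth. FLT4 passed the filter on low counts in none of the comparisons, and 7 of the 8 receptors were tested in each.

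The neuropilins were highest in aorta. NRP1 was at 257, 218, 243 and 355 CPM in aorta 1 to 4, and at 0 to 165 CPM in the microbrush libraries, with a median of 67.6. Microbrush 9 and microbrush 6 (151 CPM) were the highest of these, and microbrush 4 had no count, which allows up to 1.58 CPM. Wires 1 to 4 gave 74.2, 3.25, 100.997 and 57.9 CPM, and blood 1 and blood 3 gave 35.7 and 42.9 CPM. Blood 2 gave 137 CPM from 27 counts. No catheter or blood library reached the lowest aorta library.

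By median NRP2 was also highest in aorta, but wire came above microbrush, the reverse of NRP1. It was at 146, 142, 134 and 239 CPM in aorta 1 to 4, at 0 to 129 CPM in the microbrush libraries (median 55.8) and at 81.4, 72.5, 10.54 and 69.4 CPM in wires 1 to 4. Microbrush 4 at 0, microbrush 9 at 4.81 CPM and wire 3 at 10.54 CPM were the lowest catheter libraries. Both neuropilins were at 0 in microbrush 4, while NRP1 was high in microbrush 9 and wire 3, where NRP2 was low. Blood 1 and blood 3 held 55.4 and 83.5 CPM of NRP2, and blood 2 had no count, which at its depth allows up to 15.2 CPM.

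In the angiopoietin arm, TEK ran from 6.32 CPM (microbrush 4) to 137 CPM (microbrush 6) in the microbrush libraries, with a median of 24.9. It was at 57.6, 0, 37.5 and 41.4 CPM in wires 1 to 4 and at 11.2, 18.3, 21.1 and 7.14 CPM in aorta 1 to 4. Leaving aside wire 2 and microbrush 4, TEK was at 14.7 CPM or more in every catheter library, and the range of the catheter libraries overlapped that of aorta.

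TIE1 ran from 2.05 CPM (microbrush 5) to 267 CPM (microbrush 6) in the microbrush libraries, with a median of 16.04. Wires 1 to 4 gave 26.3, 22.2, 70.6 and 111.4 CPM, aorta 1 to 4 gave 15.5, 7.67, 15.8 and 17.9 CPM, and blood 1 to 3 gave 3.77, 0 and 3.81 CPM. All wires were above all aorta libraries, and all aorta libraries were above blood 1 and blood 3. Blood 2 had no count, which allows up to 15.2 CPM, so its place below aorta 2 was not detectable at this depth.

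PTPRB was present in all microbrush libraries. It ran from 27.3 CPM (microbrush 7) to 504 CPM (microbrush 6) with a median of 50.2, and the other 8 lay between 40.8 and 85.4 CPM. Aorta 1 to 4 gave 18.7, 24.6, 29.9 and 24.5 CPM, and blood 1 and blood 3 gave 14.8 and 17.0 CPM. Wires 1 and 4, both of pig 243K, held 187 and 124 CPM, and wires 2 and 3, both of pig 248K, held no count. For these a count of 0 allows up to 1.62 and 0.878 CPM. Wire 3 had 3405 counts of KDR and 241 of TIE1, so those receptors were not absent with it. Of the 14 endothelial markers, however, 6 were at 0 in both of these wires (CLEC14A, MMRN2, NOS3, ECSCR, ADGRL4 and EMCN), and CDH5 had 1 count in wire 3. None of the 14 was at 0 in wires 1 and 4, where CLEC14A was at 126 and 190 CPM.

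The make-up of the summed receptor counts within a library does not depend on scaling between libraries. Because longer transcripts give more reads, these shares are compared for the same genes between libraries only. NRP1 and NRP2 together made up 80.7, 80.0, 79.2 and 86.3% of the receptor counts in aorta 1 to 4, 56.9, 69.2 and 64.4% in blood 1 to 3 (blood 2 from 39 counts), 0 to 57.3% in the microbrush libraries and 9.08 to 35.7% in the wires. The share in every aorta library was above that in every other library. KDR, FLT1 and FLT4 together made up 6.52 to 10.2% in aorta, 15.3 to 79.0% in the microbrush libraries and 33.3, 53.8, 82.1 and 36.8% in wires 1 to 4. The share of KDR alone was 2.29 ± 0.21% in aorta (SD, n = 4), 23.7 ± 21.2% in the microbrush libraries (n = 10) and 44.96 ± 27.7% in the wires (n = 4). TEK, TIE1 and PTPRB together made up 7.19 to 14.04% in aorta, 18.7 to 46.6% in the microbrush libraries, and 42.4, 10.46, 8.80 and 43.3% in wires 1 to 4.

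**Figure D2:**
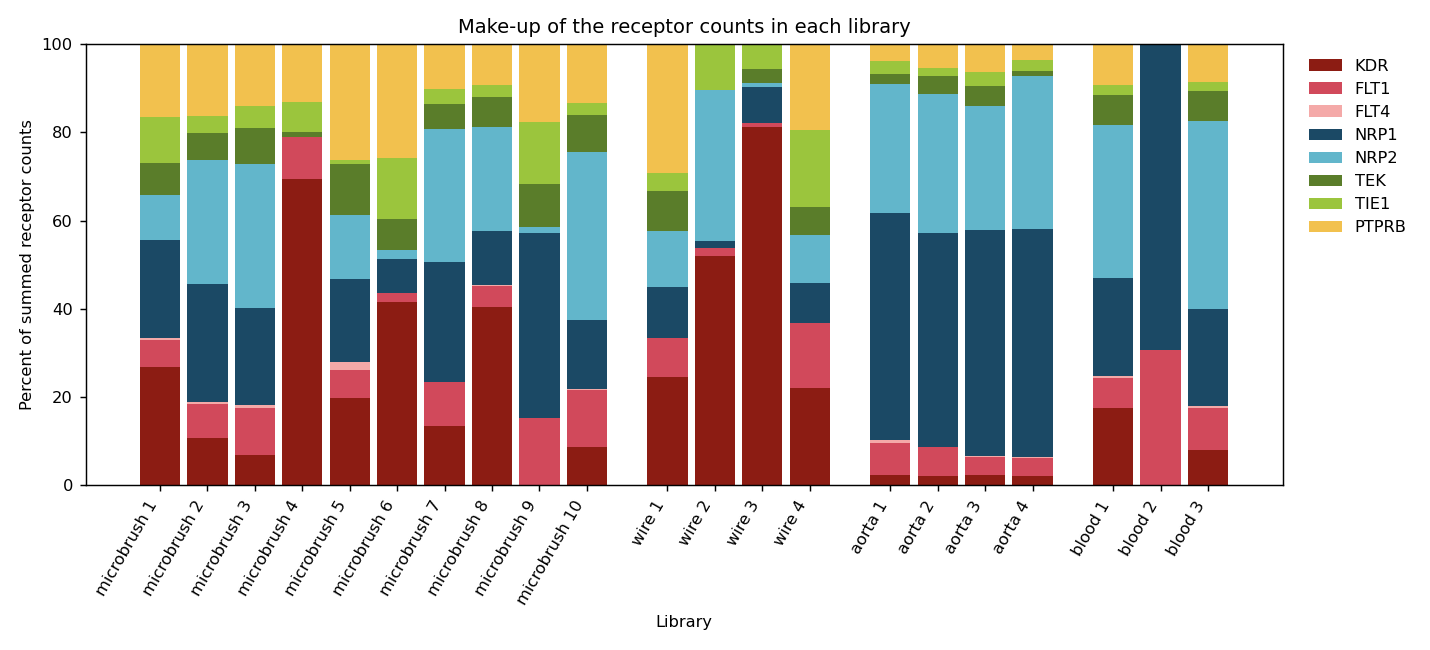
Each bar is 1 library, ordered by group, and its colours give the percent of the library's summed receptor counts that each of the 8 receptors took, not scaled for transcript length. The neuropilins (blue) fill 79.2 to 86.3% of every aorta bar, and KDR (dark red) takes 69.3% of microbrush 4 and 81.2% of wire 3.

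A second ratio within libraries set each receptor against the summed counts of PECAM1 and CDH5, adhesion proteins of endothelial junctions. KDR came to 12.3 to 20.1% of that sum in aorta, 17.9 and 22.5% in blood 3 and blood 1, 29.6 to 145% in the wires and 0.0503 to 87.3% in the microbrush libraries. For NRP1 it was 288 to 483% in aorta, 2.47 to 24.1% in the wires and 0 to 91.0% in the microbrush libraries. PTPRB came to 22.8 to 51.0% in aorta and 16.6 to 63.1% in the microbrush libraries, and TEK to 9.72 to 36.0% and 1.23 to 27.98%. The sum rested almost wholly on PECAM1 in wire 3 (2342 counts of PECAM1 and 1 of CDH5) and microbrush 4 (978 and 0), which gave the highest ratios of KDR in their groups, and rho of PECAM1 with KDR was 0.72. PECAM1 was highest in microbrush 6, wire 3 and microbrush 4 (1446, 686 and 515 CPM), the libraries with the highest summed platelet markers. Whether the counts of PECAM1 and CDH5 follow endothelium alone was not tested. The ratios of NRP1 and NRP2 in both kinds of catheter library were below all those in aorta. In the wires KDR lay above aorta and FLT1 below it (1.66 to 19.8% against 33.0 to 43.2%). The ratios of KDR, FLT1, PTPRB and TEK overlapped between microbrush and aorta. PECAM1 itself was higher in the wires (126.6 to 686 CPM) than in aorta (34.0 to 61.6 CPM). Its part in these differences was not tested. The share of all genes without overlap by this ratio was not computed.

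Microbrush and wire libraries, the test of the brush against its negative control, gave no receptor that passed the test. The fold changes of microbrush over wire ran from -1.04 (SE 0.97) for KDR to 0.34 (SE 0.90) for NRP1 on the log2 scale, with a median of 0.03 where the median of all genes tested was 0.17. In edgeR's quasi-likelihood test with Benjamini-Hochberg adjustment, 0 of the 7 receptors passed an adjusted p of 0.05 (0 of 7 at an unadjusted p under 0.05, 0 in DESeq2), and 0 of 16439 genes did (background 0%). Of all 16439 genes, 518 had an unadjusted p under 0.05. None of the 7 had groups that did not overlap, against 0.0608% of all genes. Of the pathway lists no member passed. The members with the smallest unadjusted p were LMO2, a transcription factor of blood and endothelium, at -2.16 (SE 0.84), DOK2, an adaptor that binds TEK, at -2.50 (SE 1.02), and SEMA3E, a semaphorin, at 3.00 (SE 1.36), each with an edgeR adjusted p of 0.99976.

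The difference between brush and wire was then taken within each pig. For PTPRB pig 243K gave 0.06 and pig 248K, with both wires at 0, gave 10.07. The endothelial markers at 0 in both wires of pig 248K stand beside this difference, and their part in it was not tested. The test of that difference between pigs gave 10.20 on the log2 scale, with an edgeR p of 9.88e-05 and an adjusted p of 0.176, and 0 of 16439 genes passed. Values fitted against libraries at 0 depend on the prior count and are no measure of size. The next smallest p between pigs was 0.10005, for FLT1, and the smallest between organs was 0.142, for TIE1.

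Against aorta, KDR, PTPRB, TIE1 and TEK had higher values and NRP1 and NRP2 lower values in the microbrush libraries, but no receptor passed the test. KDR had a log2 fold change of 3.90 (SE 1.27, edgeR adjusted p = 0.342) and PTPRB of 2.07 (SE 0.86, adjusted p = 0.750). NRP1 had -1.82 (SE 0.74, adjusted p = 0.725) and NRP2 -1.41 (SE 0.79, adjusted p = 0.99984). In all, 0 of 7 receptors passed (3 at an unadjusted p under 0.05, 0 in DESeq2), where 0.125% of 16776 genes did. Of all 16776 genes, 805 had an unadjusted p under 0.05. Without microbrush 6, PTPRB was at 0.97, TIE1 at 0.45 in place of 1.79 and TEK at 0.65, and TIE1 was at -0.21 in limma voom. With quality weights in limma voom 2 passed, KDR at 1.75 (adjusted p = 0.0351) and NRP1 at -1.98 (adjusted p = 2.81e-04). That method called 757 genes in all, 4.51% of 16776. The groups did not overlap for 2 of the 7, NRP1 and NRP2, against 1.82% of all genes. The receptors' median was 1.31 where that of all genes was -0.17. Platelet markers had summed levels of 19.5 to 12760 CPM in the microbrush libraries and 44.9 to 67.3 CPM in aorta, and their part in the KDR values was not tested by group.

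Between wire and aorta 1 receptor passed. KDR was 279 ± 344 CPM (SD, n = 4) in the wires and 9.43 ± 1.85 CPM (n = 4) in aorta, scaled within this comparison, a log2 fold change of 4.89 (SE 0.82, edgeR adjusted p = 0.00975). The fold change was 3.51 (adjusted p = 0.00108) without wire 3. The call was lost without aorta 1 (4.91, adjusted p = 0.0612) or without aorta 2 (4.797, adjusted p = 0.0652), which left the size nearly the same, and DESeq2 gave no adjusted p for KDR. This was 1 of 7 receptors, where 3.57% of 15313 genes passed. NRP1 at -2.16 (SE 0.75, adjusted p = 0.188), TIE1 at 2.02 (SE 0.76, adjusted p = 0.234) and NRP2 at -1.49 (SE 0.59, adjusted p = 0.277) did not pass. DESeq2 passed NRP1 (adjusted p = 0.0272), and limma voom with quality weights passed KDR, NRP1 and TIE1. These methods called 1116 and 817 genes in all, 7.29% and 5.34% of 15313. For 4 receptors, KDR, NRP1, NRP2 and TIE1, the groups did not overlap, as for 18.4% of all genes. The median was 1.25 for the receptors and -0.29 for all genes.

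Other cell type markers differed in the same comparison, to be read against the 3.57% of all genes called. Summed platelet markers were at 1980 to 12723 CPM in the wires and 44.9 to 67.3 CPM in aorta, with 3 of 4 called higher, and 5 of 10 smooth muscle markers were called lower in the wires. Endothelial markers summed to 443 to 1607 CPM in the wires and 384 to 485 CPM in aorta, with 2 of 14 called higher, PECAM1 at 2.88 (SE 0.57, adjusted p = 0.0200) and PLVAP at 2.23 (SE 0.52, adjusted p = 0.0409). PECAM1 was also above its aorta levels in blood 1 and blood 3. No platelet marker in the table was at 0 in all libraries of either group. All wires came from the kidney or liver of pigs 243K and 248K and all aorta libraries from pig 237053, so device, vessel and pig cannot be told apart here.

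**Figure D3:**
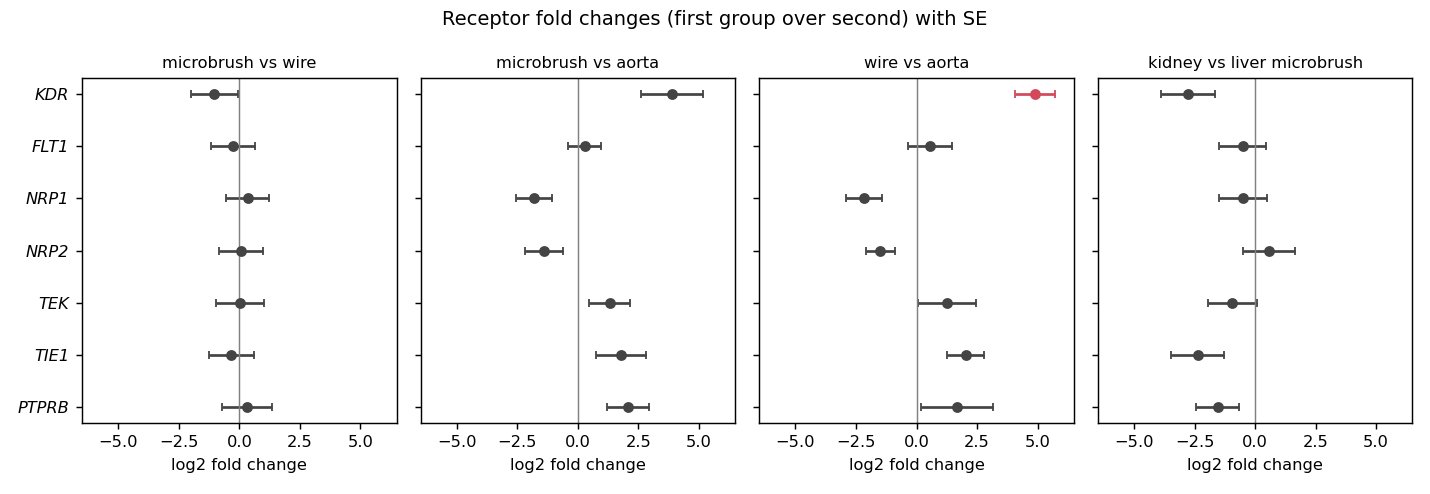
The 4 panels give, for 7 receptors, the log2 fold change of the first group over the second as points with 1 SE as bars. Among the points only KDR in wire over aorta, at 4.89 and drawn in red, passed an edgeR adjusted p of 0.05.

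Among the pathway genes tested between wire and aorta, members of 3 lists passed, where 3.57% of all genes did. Of 12 signalling partners 2 rose, DOK2 by 4.55 (SE 0.79, adjusted p = 0.0105) and the adaptor GRB2 by 2.53 (SE 0.54, adjusted p = 0.0274), and the list's median was 0.19. Of 11 endothelial transcription factors 3 rose, LMO2 by 6.48 (SE 0.59, adjusted p = 0.00280), ETS1 by 2.34 (SE 0.52, adjusted p = 0.0336) and FLI1 by 2.87 (SE 0.68, adjusted p = 0.0425), with a median of 1.43. These genes are also made by blood cells, and LMO2, FLI1 and ETS1 act in blood cell formation. Of 12 neuropilin partners 1 fell, PLXNA4, a plexin that signals semaphorin binding, at -3.92 (SE 0.64, adjusted p = 0.00917), with a median of -1.18. No ligand of 4 and no VEGF target gene of 6 passed. ANGPT1 was at 2.50 (SE 0.85, adjusted p = 0.174).

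The ligands were measured in the same libraries. ANGPT1 was at 61.8 ± 60.5 CPM (SD, n = 10) in the microbrush libraries, 89.8 ± 88.5 CPM (n = 4) in the wires and 16.1 ± 6.22 CPM (n = 4) in aorta. ANGPT2 was at 42.4 ± 34.7, 19.8 ± 13.8 and 30.0 ± 8.45 CPM, and VEGFA at 34.4 ± 18.6, 21.6 ± 23.1 and 36.4 ± 12.4 CPM. These groups overlapped for each of these ligands. ANGPT4, an angiopoietin that also binds TEK, was at 33.4 ± 18.2, 16.0341 ± 16.6 and 56.3 ± 11.2 CPM, and its wires (0 to 31.8 CPM) all lay below aorta (41.9 to 67.9 CPM). VEGFC and VEGFD were at 11.5 CPM or less in all libraries, and VEGFB and PGF had no row under those symbols.

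Against whole blood, all 7 receptors had higher values in the microbrush libraries, with a median of 2.22 where that of all genes was 0.40, but none passed. For FLT1 and NRP1 the direction turned with RLE scaling (-0.090 and -0.43), a minimum count of 50 (-0.046 and -0.15) and DESeq2 (-0.040 and -0.44). TIE1 had 4.33 (SE 1.60, edgeR adjusted p = 0.631), KDR 3.95 (SE 1.67, adjusted p = 0.847) and PTPRB 3.44 (SE 1.53, adjusted p = 0.920). Without microbrush 6 these were 2.69, 2.53 and 2.09. In all 0 of 7 passed, with 3 at an unadjusted p under 0.05, where 0.0119% of 16874 genes passed. Of all 16874 genes, 709 had an unadjusted p under 0.05. DESeq2 passed 2, KDR (adjusted p = 0.0460) and PTPRB (adjusted p = 0.0167), where it called 423 genes in all, 2.51% of 16874. For 1 receptor, PTPRB, the groups did not overlap, against 0.729% of all genes. Smooth muscle markers were higher as well, with a median of 7.27 and 9 of 10 at an unadjusted p under 0.05, a level that 709 of 16874 genes reached.

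Wires against blood gave the same signs for all receptors but NRP1. Both comparisons share the blood libraries, and without blood 2 NRP1 was at 0.53 and NRP2 at -0.24. TIE1 had 4.31 (SE 2.02), KDR 4.49 (SE 1.98) and NRP1 -0.14 (SE 1.52), each with an edgeR adjusted p of 0.99999. In all 0 of 7 receptors passed (2 at an unadjusted p under 0.05, 0 in DESeq2), and so did 0 of 14483 genes (background 0%). Of all 14483 genes, 148 had an unadjusted p under 0.05. The groups did not overlap for 2 receptors, KDR and TIE1, against 3.72% of all genes.

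Between aorta and blood the result turned on blood 2. With it 0 of 7 receptors passed (1 at an unadjusted p under 0.05), where 1.49% of 16046 genes did. Of all 16046 genes, 1803 had an unadjusted p under 0.05. In DESeq2 1 receptor passed, where 1503 genes did, 9.37% of 16046. The groups did not overlap for 3, NRP1, NRP2 and TIE1 (TIE1 with the 0 of blood 2 taken as it stands), against 14.9% of all genes. NRP1 had 1.91 (SE 1.69, edgeR adjusted p = 0.774), NRP2 1.61 (SE 1.56, adjusted p = 0.787) and TIE1 1.86 (SE 0.82, adjusted p = 0.311). Without blood 2, NRP1 rose by 2.70 (adjusted p = 9.68e-05) and TIE1 by 1.82 (adjusted p = 0.0203). These 2 receptors passed where 4875 genes did in place of 239, or 30.4% of 16046, so passing was common among all genes. KDR had -0.65 (SE 0.75) with all libraries. Of the pathway lists KLF2, a transcription factor that responds to flow and is also made by lymphocytes, was lower in aorta at -4.35 (SE 1.22, adjusted p = 0.0318).

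Within the microbrush libraries 6 of 7 receptors had higher values in the liver than in the kidney, and none passed. KDR was at 24.4 to 81.9 CPM in the 5 kidney libraries. In the liver libraries it was at 450, 809, 35.5, 219 and 0.209 CPM in microbrush 4, 6, 7, 8 and 9, so the groups overlapped. The log2 fold change of kidney over liver was -2.77 (SE 1.11, edgeR adjusted p = 0.99975) for KDR and -2.37 (SE 1.10, adjusted p = 0.99975) for TIE1. In all 0 of 7 receptors passed (2 at an unadjusted p under 0.05, 0 in DESeq2), and so did 0 of 15013 genes (background 0%). Of all 15013 genes, 238 had an unadjusted p under 0.05. None of the 7 had groups without overlap, against 0.486% of all genes. The median was -0.93 for the receptors, 0.50 for all genes and -2.14 for the 4 platelet markers, whose part in the KDR values was not tested by organ. PTPRB was nearly level in the kidney libraries at 47.3 ± 5.95 CPM (SD, n = 5) and spread over 147 ± 200 CPM in the liver libraries (n = 5), or 58.0 ± 25.01 CPM without microbrush 6. Without microbrush 6 the fold change of TIE1 was -1.11. The higher liver values of FLT1 and NRP1 turned with RLE scaling (0.052 and 0.10) and that of PTPRB in limma voom (0.18).

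Which receptors moved together was read over the 14 catheter libraries as Spearman and Pearson correlations of log2(CPM + 1), with permutation tests. These libraries share 2 pigs and 1 scaling, so they are not 14 separate animals. Of 28 pairs, 15 had a positive rho, the median was 0.09 and the range ran from -0.63 to 0.71. In all, 4 pairs had an unadjusted p under 0.05 for rho and 0 passed after Benjamini-Hochberg adjustment over the 28, while 1 passed by Pearson's r. The receptors therefore did not move as 1 block.

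That pair was FLT1 with PTPRB. Its rho was 0.713 (permutation p = 0.00533, adjusted p = 0.149) and its r was 0.781 (adjusted p = 0.0266), or 0.637 without the 2 libraries farthest from the median of FLT1. Within pigs rho was 0.54 (243K, exact permutation p = 0.236) and 0.67 (248K, exact permutation p = 0.120), with 7 libraries each. By rho with PTPRB, FLT1 ranked above 99.6% of 14290 genes. Wires 2 and 3, at 0 for PTPRB, were also the lowest catheter libraries for FLT1. The 2 libraries left out above were wire 4 and wire 2, so wire 3 stayed in. In the 10 catheter libraries with at least 15000 genes, which held neither wire 2 nor wire 3, rho was 0.37 (permutation p = 0.295, adjusted p = 0.623).

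No pair with TEK passed the adjusted threshold. Its rho was 0.64 with NRP1 (permutation p = 0.0176, adjusted p = 0.176), 0.58 with PTPRB (p = 0.0314, adjusted p = 0.220), 0.53 with TIE1 (p = 0.0561, adjusted p = 0.263) and 0.45 with FLT1 (p = 0.109, adjusted p = 0.318). For TEK with PTPRB, rho was 0.89 for 243K (exact permutation p = 0.0123) and -0.11 for 248K (exact permutation p = 0.822), and without microbrush 6 and wire 2, the libraries farthest from the median of TEK, r was -0.02 and rho 0.36. In the 10 catheter libraries with at least 15000 genes, which held neither of those, rho of TEK with PTPRB was 0.78 (permutation p = 0.0103, adjusted p = 0.185). There it was 0.64 for TIE1 with PTPRB (permutation p = 0.0532, adjusted p = 0.372) and 0.60 for TEK with TIE1 (permutation p = 0.0739, adjusted p = 0.387). Over all 14, TIE1 with PTPRB had a rho of 0.47 (permutation p = 0.0949, adjusted p = 0.318), with 0.79 for 243K and 0.05 for 248K. KDR had a rho of 0.53 with TIE1 (p = 0.0563, adjusted p = 0.263), and of 0.24 with TEK and 0.24 with PTPRB. The lowest rho was -0.63, of FLT4 with TIE1 (p = 0.0189, adjusted p = 0.176), where FLT4 rested on at most 7 counts. NRP1 and NRP2 had a rho of -0.05 with each other.

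**Figure D4:**
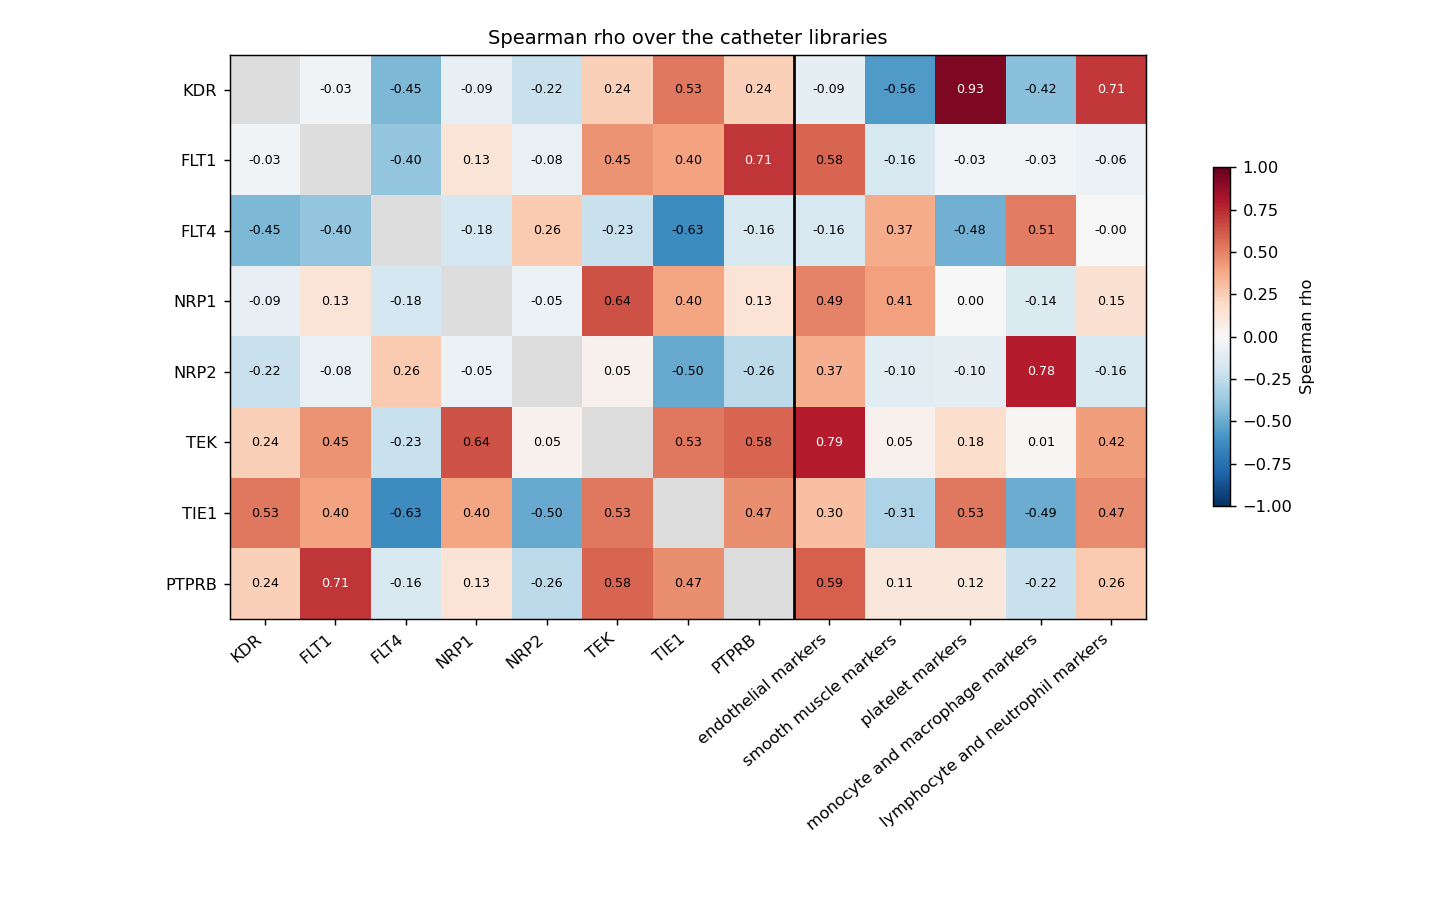
The cells give Spearman rho over the 14 catheter libraries, for pairs of receptors to the left of the black line and for receptors with the mean log2(CPM + 1) of 5 lists of cell type markers to the right. The largest value is 0.93, of KDR with the platelet markers, while KDR has -0.09 with the endothelial markers and TEK has 0.79.

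Each receptor was then set beside lists of cell type markers, 40 relations in all, chosen after earlier results of these data were known. KDR went with the platelet markers PPBP, GP9, TREML1 and TUBB1, genes of platelet granules, surface and cytoskeleton. Its rho was 0.934 and its r was 0.963 (both permutation p = 1e-05, the smallest that these resamples can give, and adjusted p = 0.0004), and r was 0.966 without the 2 farthest libraries. Within pigs rho was 0.86 (243K, exact permutation p = 0.0238) and 0.96 (248K, exact permutation p = 0.00278). The list of 40 adjusted within each pig gave 0.228 and 0.0556. Among the microbrush libraries alone rho was 0.867 (adjusted p = 0.0300), and among the 10 catheter libraries with at least 15000 genes it was 0.855 (adjusted p = 0.0383).

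The order of the libraries after TMM scaling shows the relation. Wire 3 and microbrush 6, the highest for KDR at 997 and 809 CPM, had the highest platelet marker sums, 12723 and 12760 CPM, and microbrush 4 came next in both, with 450 CPM of KDR and a sum of 5049 CPM. Microbrush 9, with 1 count of KDR, had the lowest sum, 19.5 CPM. By single markers rho was 0.93 with PPBP, 0.91 with TUBB1, 0.86 with TREML1 and 0.64 with GP9. PF4, ITGA2B and GP1BA had no row under those symbols. Of 14291 genes 99.6% had a lower rho with the platelet list than KDR, and the median gene had -0.28. The platelet list itself had a rho of -0.49 with the number of genes detected, and KDR one of -0.60. No cause of the relation was tested.

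KDR and the endothelial markers did not go together as a list, with a rho of -0.09 (permutation p = 0.761) and pigs of opposite sign (0.61 and -0.61). Single markers differed. Of the 14, 10 had a negative rho with KDR, down to -0.34 for ENG, and CDH5 had -0.03, while the positive ones were PLVAP (0.89), PECAM1 (0.72), S1PR1 (0.63) and ESAM (0.33). Against the lymphocyte and neutrophil markers rho of KDR was 0.71 (permutation p = 0.00615, adjusted p = 0.0615), with an r of 0.775 (adjusted p = 0.0196). That r was 0.443 without wire 3 and microbrush 9, the 2 farthest libraries. All 6 of these markers had a positive rho with KDR, up to 0.776 for CSF3R. By rho with this list KDR ranked above 98.3% of the 14291 genes. Against the smooth muscle markers rho of KDR was -0.56 (permutation p = 0.0385, adjusted p = 0.220), with an r of -0.69 (adjusted p = 0.0295).

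**Figure D5:**
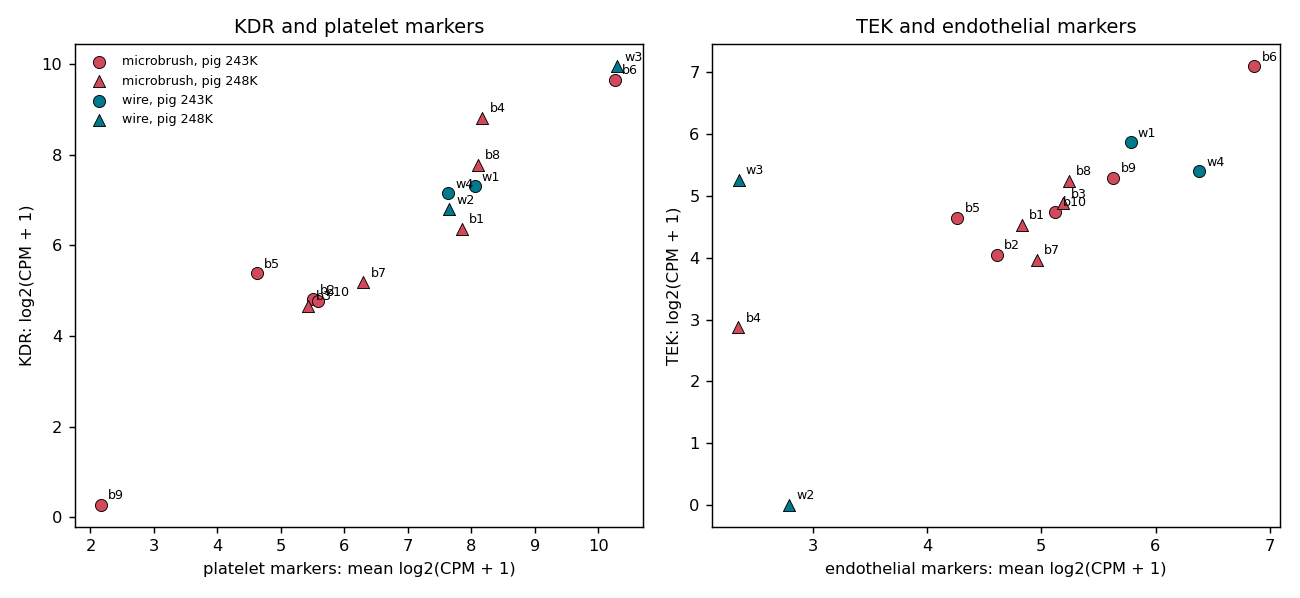
Each point is 1 of the 14 catheter libraries, with microbrush libraries marked b and wires marked w and numbered, circles for pig 243K and triangles for pig 248K. The left panel plots KDR against the mean of 4 platelet markers (rho 0.93), and the right panel plots TEK against the mean of 14 endothelial markers (rho 0.79), both as log2(CPM + 1).

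TEK went with the endothelial list. Its rho was 0.789 (permutation p = 0.00132, adjusted p = 0.0176) and its r was 0.692 (adjusted p = 0.0295), or 0.919 without wire 3 and microbrush 4. Within pigs rho was 0.93 (243K, exact permutation p = 0.00675) and 0.36 (248K, exact permutation p = 0.444), and the adjusted p rose above 0.05 without wire 1 (0.0625), wire 4 (0.0703), microbrush 6 (0.0719) or microbrush 9 (0.0519). PTPRB and FLT1 had a rho of 0.59 and 0.58 with the same list (both adjusted p = 0.205), and an r of 0.75 (adjusted p = 0.0279) and 0.58 (adjusted p = 0.154). With the endothelial list TEK ranked above 99.1% of the 14291 genes, PTPRB above 95.5% and FLT1 above 95.04%. TIE1 had 0.30 with the list (0.93 for 243K, -0.82 for 248K) and 0.89 with PECAM1 alone.

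NRP2 went with the monocyte and macrophage markers. Its rho was 0.785 (permutation p = 0.00132, adjusted p = 0.0176), its r was 0.891 (adjusted p = 0.0098) and 0.843 without the 2 farthest libraries, and rho was 0.75 and 0.89 within pigs (exact permutation p = 0.0663 and 0.0123). The number of genes detected moved with both, with a rho of 0.83 for the list and of 0.66 for NRP2, and its part in the relation was not tested. In libraries with at least 15000 genes rho was 0.78 and no longer passed (adjusted p = 0.107). Leaving out microbrush 3, 8, 9 or 10 also ended the call, at adjusted p-values of 0.0519 to 0.0876. NRP2 ranked above 87.4% of the 14291 genes by rho with this list, a lower rank than those of KDR and TEK with theirs, and the median gene had 0.29. Of the 6 markers 5 had a positive rho with NRP2, up to 0.87 for CD163, and CSF1R had -0.36. NRP1 had -0.14 with this list.

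The genes most like each receptor in their order over the catheter libraries, among 14290 others, are given as a description. For KDR they were MAX, SERPINB1 and PITHD1, each with a rho of 0.978, then PAPSS1 (0.974) and H3-3A (0.969). For TIE1 they included DOCK9 (0.908), ARAP3 (0.899) and PECAM1 (0.890). PTPRB came closest to FN1, or fibronectin (0.924), FOXS1 (0.906) and FBLN1 (0.898), and FLT1 to CGNL1, a junction protein (0.921), COL14A1 (0.877) and MYRIP (0.845). FBLN1 was on the list of 5 for both PTPRB and FLT1. For TEK they were IFNGR1, an interferon receptor chain (0.943), SHROOM4 (0.895) and BST2 (0.893). NRP1 came closest to CGRRF1 (0.938) and NRP2 to GP2 (0.960) and ACSL6 (0.959).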

How the data were processed

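RNA was sequenced from 21 pig libraries. Per the labels' protocols, total RNA was extracted with a reduced-volume RNAdvance Tissue kit and made into SMARTer Pico libraries. Salmon, DESeq2 and the build Sscrofa11.1 are named in the submitters' processing notes; versions, annotation and trimming are not given in the sources used here. The values are the estimated counts per Ensembl gene that the authors deposited, merged over samples and not scaled, of which 11.9% were not whole. They were rounded for the tests. All columns were mapped to a sample. Of 24358 genes 14692 had a symbol, and all 8 receptors matched the RefSeq table by symbol.

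Groups, organs and pigs came from the labels, and replicate numbers follow accession order and pair nothing. The receptors, marker lists and pathway lists were chosen with earlier results of these data known. Each comparison was fitted over the whole table on the libraries it compares, in edgeR 4.0.16 (R 4.3.3; filterByExpr with a minimum count of 10, TMM, robust quasi-likelihood test, Benjamini-Hochberg adjusted p under 0.05). Levels set side by side across groups come from TMM over all 21 libraries, and mean CPM beside a fold change from the comparison. Correlations used log2(CPM + 1) with two-sided permutation tests of 100000 resamples, exact within pigs. The relations with marker lists were not in the plan and were added with the data in hand. For a gene without counts the upper limit is 3 counts, covering counting error only. No pair of libraries within a group differed by as little as sampling noise.

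Named were all receptors, up to 3 members per pathway list with the smallest p, of which those the text turns on are given, and the 5 genes most like each receptor by Spearman rho among genes with at least 10 counts in 7 catheter libraries. PLVAP, CDH5 and single platelet markers were named after their values were seen. Alternatives were RLE scaling, no filter, a minimum count of 50, DESeq2 1.42.0, limma 3.58.1 voom with quality weights, all groups fitted together, a replicate block for the pig, libraries under 5000 genes left out and each library left out in turn. The test was also tested on simulated data.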

Additional observations from a re-analysis of the deposited data

Results flagged for a closer look

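In 23 groups of 4 to 10 libraries, 8 had a library whose gap to its nearest neighbour on the log2(CPM + 1) scale was large for the range of its group (Dixon's test at 95%), where chance marks about 1 in 20 groups. The groups reuse the same libraries over the receptors, so the flags are not independent. They were read after TMM scaling and depend on it. In the microbrush libraries these were KDR in microbrush 9, at 0.209 CPM from 1 count, NRP1 in microbrush 4, at 0 CPM, and PTPRB in microbrush 6, at 504 CPM from 1672 counts. In the wires they were KDR in wire 3, at 997 CPM from 3405 counts, NRP2 in wire 3, at 10.54 CPM from 36 counts, and TEK in wire 2, at 0 CPM. In aorta they were NRP2 in aorta 4, at 239 CPM from 469 counts, and TIE1 in aorta 2, at 7.67 CPM from 28 counts.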

How the results depend on the processing

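Of 1246 values under alternatives, 1080 kept their direction and call or, for counts, stayed near the count in the report, and 58 changed sign. Near took in sizeable moves, such as 817 genes in limma voom against 546 in the report for wire over aorta. Among the 27 receptor fold changes of at least 1 on the log2 scale, 5 of 465 values changed sign. All receptors called at 0 to 3 per comparison rest on few libraries, FLT4 has too few counts to compare, and 1 count in blood 2 is worth 5.06 CPM. The relations with marker lists, each pig or organ alone for brush over wire, and the libraries with at least 15000 genes were chosen after seeing the data.

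Receptor calls moved as follows. limma voom with quality weights called 2 between microbrush and aorta (0 in the report), 3 between wire and aorta (1), 1 between wire and blood (0) and 1 between aorta and blood (0). Over all genes it called 4.51, 5.34, 0.539 and 16.9% of those tested in the report. DESeq2 called 2 between microbrush and blood (0) and 1 between aorta and blood (0), and over all genes 2.51 and 9.37%. Leaving out libraries under 5000 genes gave 2 between aorta and blood, and over all genes 30.4%. With each library left out in turn, calls ran from 0 to 1 between wire and aorta and from 0 to 2 between aorta and blood, and stayed at 0 in the other comparisons. For pairs of receptors 1 passed by Pearson's r. Of the 40 relations with marker lists 3 passed, 7 with RLE, 6 with scaling by library totals, 6 without libraries under 5000 genes and 0 in each pig alone, and 1 to 6 with each library left out. In pigs 243K and 248K alone rho was 0.857 and 0.964 for KDR with platelet markers, 0.929 and 0.357 for TEK with endothelial markers and 0.750 and 0.893 for NRP2 with monocyte and macrophage markers, none past the adjusted threshold at 7 libraries. For NRP2 rho was 0.782 in libraries with at least 15000 genes. With each library left out rho ran from 0.918 to 0.973 for KDR, from 0.736 to 0.940 for TEK and from 0.731 to 0.857 for NRP2. The cause of these changes was not tested.

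Fold changes of microbrush over wire that changed sign were FLT1 (0.070 with RLE, 0.069 in DESeq2, 2.50 in pig 248K, 0.30 in liver), TEK (-0.76 in voom, -0.056 in liver), PTPRB (-0.82 in voom, -0.30 in kidney), KDR (0.52 in pig 243K), NRP2 (-0.42 in pig 243K) and TIE1 (0.22 in pig 243K, 0.70 in liver). With each library left out these ran from -1.64 to 0.16 for KDR, -0.69 to 0.60 for FLT1, -0.051 to 0.69 for NRP1, -0.20 to 0.35 for NRP2, -0.42 to 0.41 for TEK, -1.40 to 0.21 for TIE1 and -0.62 to 1.24 for PTPRB. Against aorta, voom gave the microbrush libraries -0.064 for FLT1 and -0.21 for TIE1, and FLT1 in wire over aorta ran from -0.32 to 0.95 with each library left out.

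In microbrush over blood FLT1 was -0.090 (RLE), -0.046 (minimum count 50) and -0.040 (DESeq2), NRP1 was -0.43, -0.15 and -0.44, and NRP2 was -0.10 without libraries under 5000 genes. The left-out ranges were -0.14 to 1.37 for FLT1 and -0.16 to 1.13 for NRP1. In wire over blood NRP1 was 0.48 (voom) and 0.53, and NRP2 was -0.24, both without libraries under 5000 genes, with left-out ranges of -0.44 to 0.53, -0.24 to 1.36 and, for FLT1, -0.088 to 1.48. In aorta over blood FLT1 was -0.094 (RLE), -0.12 (DESeq2) and -0.084 (common fit) and TEK -0.0056 (voom), with left-out ranges of -0.35 to 0.86 for FLT1 and -0.94 to 0.10 for KDR. In kidney over liver FLT1 was 0.052 and NRP1 0.10 with RLE, NRP2 -0.14 and PTPRB 0.18 in voom, and TEK ran from -1.32 to 0.0055 with each library left out.

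Calls over all genes, in the order brush over wire, aorta and blood, wire over aorta and blood, aorta over blood and kidney over liver, were 0, 21, 2, 546, 0, 239 and 0 in the report. In DESeq2 they were 0.614% of the 16439 genes for brush over wire, then 206, 423, 1116, 132, 1503 and 66, in voom 0, 757, 634, 817, 78, 2708 and 0, in the common fit 15, 39, 64, 170, 1, 96 and 0. Without filter 39, 13, 610 and 1 were called for brush over aorta, brush over blood, aorta over blood and kidney over liver. RLE gave 6 and 502, and a minimum count of 50 gave 9 and 407, for brush over blood and aorta over blood. Without libraries under 5000 genes the calls were 36 for brush over aorta, 0 for brush over blood, 8 for wire over blood and 4875 for aorta over blood, and pig 248K alone gave 46 for brush over wire. With each library left out they ran from 7 to 38, 1 to 9, 62 to 1515, 0 to 8 and 35 to 4875 in the 5 comparisons with aorta or blood.

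The pig as a replicate block gave 0 receptor calls in the 4 comparisons it could be fitted to and changed the sign of FLT1 in brush over wire (0.10) and of PTPRB in wire over blood (-0.50). It gave 0 calls over all genes for brush over blood in place of 2. Aorta came from a pig of its own, so no block could be fitted there, and no library numbers paired the samples.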
